A study of Mus musculus with 6 samples.

Results

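The unfolded protein response of intestinal crypts was read from 10 listed genes: Xbp1, Ern1, Hspa5, Atf4, Atf6, Ddit3, Dnajb9, Edem1, Herpud1 and Pdia4. Xbp1 was chosen by its measured values, because an earlier look at these arrays had found a lower ratio in mice with loss of imprinting (LOI) of Igf2, and the other 9 genes were added as parts of its pathway. Genes were found through the accession of each probe. A probe was paired with 8 of the 10 genes, through 9 of the 41006 probes on the array, which named 12362 genes in all. Edem1 had 2 probes, and Ern1 and Atf6, for which no probe was paired, are not analysed here. All 9 probes were brighter than the 95th percentile of 314 negative control features on all 6 arrays and none was saturated, so none was left out. This is a low bar, since 94.0% to 95.7% of all probes passed it on each array, and the Dnajb9 probe was barely above it.

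Crypts, the pits of the gut epithelium where its stem cells sit, were collected by laser capture from 10 µm sections of frozen mid small intestine of adult C57BL/6 mice aged 120 days, at an average of 8000 crypts per mouse. The LOI(+) group was 3 mice from H19+/- mothers and wild-type fathers, and each carried on the maternal chromosome a deletion of the H19 gene (3 kb) with 10 kb of upstream sequence that holds its differentially methylated region. The LOI(-) group was 3 wild-type mice from the same kind of cross. The deletion is inherited, so it is present in every cell and removes maternal H19 as well as the silencing of maternal Igf2. Each mouse had 1 array, with 1.7 µg of its RNA labelled for the Cy3 channel and a common reference, Universal Mouse Reference RNA pooled from cultured lines, in the Cy5 channel. The labels give 4 of the mice as male and give no sex for LOI(-) 3 and LOI(+) 2.

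The unfolded protein response is the set of signals that cells raise when unfolded protein builds up in the endoplasmic reticulum (ER). IRE1 (Ern1, with the gut form Ern2), PERK (Eif2ak3) and ATF6 sense that load from the ER membrane. IRE1 splices Xbp1 mRNA into the form that codes for an active transcription factor, PERK slows protein synthesis while favouring translation of Atf4, and ATF6 is cut in the Golgi by the proteases S1P and S2P. XBP1 and ATF6 raise chaperones and degradation factors of the ER, and ATF4 raises genes of amino acid supply and Ddit3. In the small intestine the pathway is best known in goblet and Paneth cells, which secrete mucins and antimicrobial peptides, and loss of Xbp1 in the mouse gut is known to deplete Paneth cells.

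The DNA elements through which these factors are known to act are shown first, because they place the listed genes beside other genes of the pathway. The window from 250 bases before to 50 bases after each RefSeq gene start (GRCm38.p6) was read on both strands in 32851 windows; a window was held for 9 of the listed genes, Atf6 being the exception, and for 249 other pathway windows. The ER stress element (ERSE), bound by ATF6 and XBP1 with NF-Y, was searched as CCAAT and CCACG with 9 free bases between them, and it stood in 0.119% of all windows, in Hspa5 alone among the listed genes and in 10 of the 249. ERSE-II, searched as ATTGG and CCACG with 1 free base between, stood in 0.0365% of all windows, in Herpud1 and in 1 of the 249. The XBP1 element UPRE (TGACGTGG) stood in 0.676% of all windows, in 0 of the listed genes and in 13 of the 249. The ATF4 and CHOP element CARE (TGATGCAA) stood in 0.895% of all windows, in Herpud1 and in 6 of the 249. ERSE, ERSE-II and UPRE share the letters CCACG or their complement CGTGG, but no matches overlapped in the genes shown here. Each stretch reads 5′ to 3′ along its gene, with the fixed letters of the matches in capitals, and a match is only a run of letters, not a site shown to be bound.
Hspa5, ERSE, chr2:34772015-34772053, plus strand: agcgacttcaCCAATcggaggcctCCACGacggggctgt
Herpud1, CARE then ERSE-II, chr8:94386307-94386397, plus strand: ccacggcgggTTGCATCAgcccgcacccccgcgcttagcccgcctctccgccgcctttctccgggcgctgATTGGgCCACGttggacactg
Hsp90b1, ERSE on each strand, chr10:86705523-86705666, minus strand: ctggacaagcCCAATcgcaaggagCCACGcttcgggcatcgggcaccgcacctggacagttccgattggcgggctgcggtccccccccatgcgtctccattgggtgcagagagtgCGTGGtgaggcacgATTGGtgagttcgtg
Calr, ERSE, chr8:84847065-84847103, minus strand: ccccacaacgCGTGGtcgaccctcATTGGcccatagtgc
Canx, ERSE, chr11:50325790-50325828, minus strand: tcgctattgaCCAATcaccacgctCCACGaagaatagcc
Dnajc3, ERSE, chr14:118937817-118937855, plus strand: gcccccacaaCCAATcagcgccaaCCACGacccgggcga
Syvn1, ERSE, chr19:6046522-6046560, plus strand: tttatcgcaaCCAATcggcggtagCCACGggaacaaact
Derl3, ERSE, chr10:75893232-75893270, plus strand: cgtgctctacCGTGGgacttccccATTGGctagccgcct
Alg12, ERSE, chr15:88819510-88819548, minus strand: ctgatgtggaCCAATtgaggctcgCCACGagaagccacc
Creld2, ERSE, chr15:88819510-88819548, plus strand: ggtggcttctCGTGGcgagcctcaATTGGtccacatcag
Nupr1, CARE, chr7:126625563-126625590, minus strand: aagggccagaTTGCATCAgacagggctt
Chac1, CARE, chr2:119351039-119351066, plus strand: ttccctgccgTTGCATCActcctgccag

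In Hspa5 the match ran from 65 to 47 bases before the start of the gene. In Herpud1 the CARE and ERSE-II matches lay between 112 and 42 bases before it. Alg12, which adds mannose to N-glycan precursors, and Creld2, an ER-resident chaperone, are transcribed away from each other and share a single match, read on opposite strands. ERSE matches were also found in Ero1b and Pdia6, with which no probe was paired.

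Values are log2 of Cy3 over Cy5, so 0 means equal signal in crypt and reference RNA, and differences are LOI(+) minus LOI(-) with the standard error (SE) of the limma fit. The median Cy3 signal was 552 to 603 on the 6 arrays, the 95th percentile of the negative controls was 439 to 449, and the ratios of any 2 arrays, compared across genes, had r between 0.932 and 0.975. The array that stood furthest apart was LOI(+) 2, with a mean r of 0.948 and 146 outlier-marked features. Markers of crypt cells were read in LOI(-): the stem cell receptor Lgr5 had a mean of 1.29, the stem cell gene Smoc2 2.88, the Paneth cell protease Mmp7 5.34 and the goblet cell mucin Muc2 3.53. Others were lower, with the stem and progenitor gene Axin2 at 0.16 and the Paneth cell marker Gfi1 at -0.88. Villus enterocyte genes also lay above the reference, with a median of 3.17 and Fabp1 at 5.91. The median of crypt stem and progenitor genes was 0.90, so these ratios do not by themselves show that the tissue was crypt. Igf2 overlapped between groups, from 0.04 to 0.16 in LOI(-) mice and from 0.07 to 0.11 in LOI(+) mice (adjusted p = 0.996 in limma), and the deleted gene H19 was not read because no probe was paired with it. All LOI(-) images were extracted before the LOI(+) ones, so the order of extraction cannot be told apart from the groups.

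Xbp1, the transcription factor activated by IRE1, had a lower mean in LOI(+) crypts, and this is the contrast that chose it, so its values are a description with no test. It stood at 0.01, -0.04 and -0.18 in LOI(-) mice and at -0.44, -0.38 and -0.38 in LOI(+) mice. The groups did not overlap, and the LOI(+) arrays lay close together. The means were -0.07 ± 0.097 and -0.40 ± 0.034 (SD, n = 3), a difference of -0.33, or 1.26-fold lower. Once the arrays were normalized to each other, the difference lay in the crypt channel, at -0.34 for Cy3 alone and -0.01 for the reference channel. Before any correction the Cy3 signal of the groups overlapped, at 3470 to 4603 in LOI(-) and 3188 to 4030 in LOI(+). Over 15 other ways of processing all arrays it ran from -0.35 to -0.25, and leaving out each array in turn gave -0.39 to -0.29. Several of the 15 could not change it, such as those that alter only the test or the choice among probes, since Xbp1 had no other probe. This probe reads total Xbp1 signal and its place in the transcript is not known here, so spliced and unspliced mRNA cannot be told apart. In bulk crypt RNA, fewer cells of a type and less RNA per cell cannot be told apart either.

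IRE1 itself was read only through its gut form. Ern2, which codes for IRE1 beta of mucus-secreting cells, was taken up after its values were seen because no probe was paired with Ern1. It stood at 5.86, 5.41 and 5.50 in LOI(-) and at 5.72, 5.43 and 5.46 in LOI(+). All arrays lay far above the reference, on arrays whose dyes were not swapped, and the groups overlapped. How far depended on the background step, since the LOI(-) mean of 5.59 became 3.82 without background correction and 6.04 with an offset of 10. The difference was -0.05 ± 0.135 (adjusted p = 0.958 in limma), and its sign turned to 0.24 in the Cy3 channel alone.

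The ER chaperones on the list had lower means in LOI(+) by amounts within the spread between mice. Hspa5 codes for BiP, the main ER chaperone and the protein that holds the sensors inactive. It stood at -0.66, -0.12 and -0.07 in LOI(-) and at -0.62, -0.20 and -0.39 in LOI(+). Array 1 of each group was its lowest, and the groups overlapped. The means were -0.28 ± 0.324 and -0.40 ± 0.211 (SD, n = 3), and the difference of -0.12 ± 0.176 had a 95% interval from -0.54 to 0.29 (adjusted p = 0.916 in limma). Without LOI(+) 1 it was -0.013 and without LOI(-) 1 it was -0.310.

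Dnajb9 (ERdj4) is a co-chaperone of BiP and a direct XBP1 target. It stood at -0.56, -0.46 and -0.28 in LOI(-) and at -0.60, -0.53 and -0.39 in LOI(+), again with overlap. The difference was -0.07 ± 0.092, with a 95% interval from -0.29 to 0.14 (adjusted p = 0.903 in limma). Its Cy3 signal of 452 to 463 was barely above the negative controls, so this ratio rests on dim signal, and in the Cy3 channel alone the sign turned, to 0.0134.

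Pdia4 (ERp72), a disulfide isomerase of the ER, had the widest spread of the listed genes. It stood at -0.51, 0.21 and 0.30 in LOI(-) and at -0.09, -1.17 and -0.01 in LOI(+). LOI(+) 2 lay far below every other array, and LOI(-) 1 was below the remaining arrays. The means were 0.00 ± 0.446 and -0.42 ± 0.647 (SD, n = 3). The difference of -0.43 ± 0.346 had a 95% interval from -1.25 to 0.39 (adjusted p = 0.855 in limma), and it was -0.05 without LOI(+) 2 and -0.68 without LOI(-) 1.

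**Figure D1:**
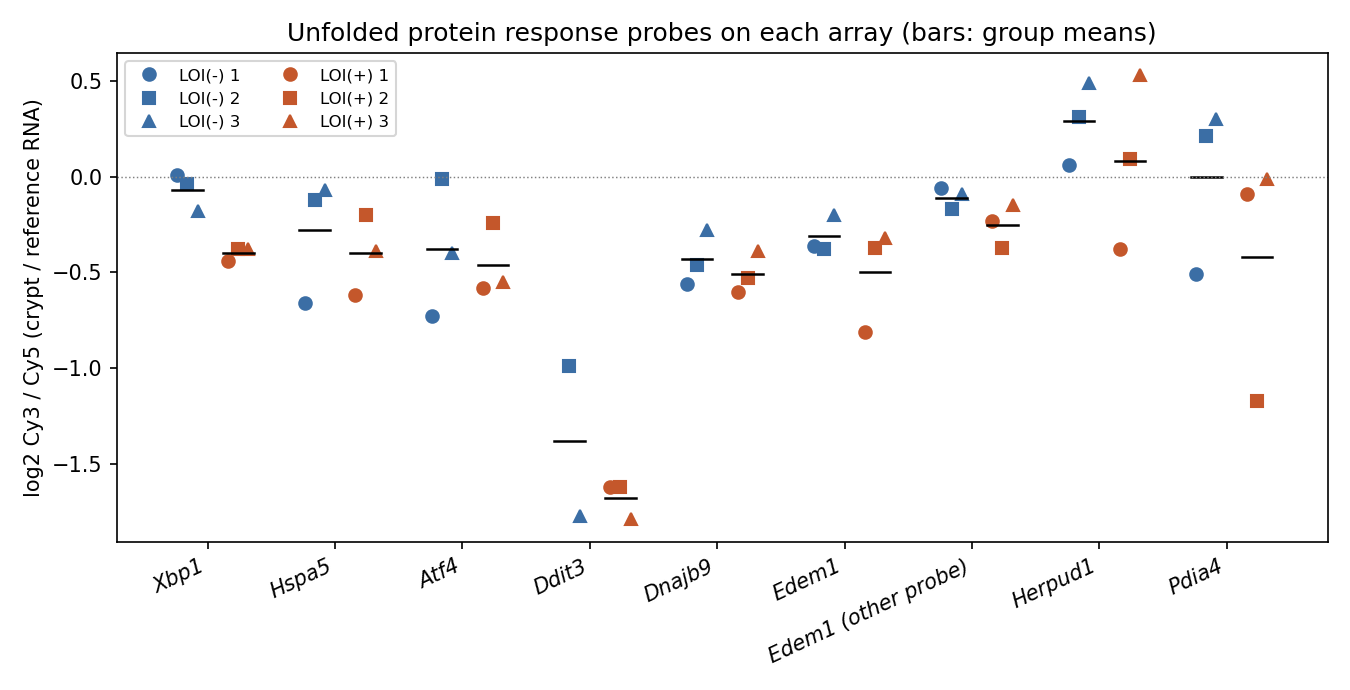
Log2 ratio of crypt (Cy3) over reference (Cy5) signal of the 9 probes of the unfolded protein response genes, with a point for each array, LOI(-) in blue and LOI(+) in orange, and a black bar at each group mean. Xbp1, the gene chosen from this contrast, has no overlap between groups, while the other probes overlap and Ddit3 lacks LOI(-) 1.

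Both genes of the PERK branch had lower means in LOI(+), with signs that turned when a single array was left out. Atf4, the transcription factor whose translation PERK favours, stood at -0.73, -0.01 and -0.40 in LOI(-) and at -0.58, -0.24 and -0.55 in LOI(+). Array 2 was the highest of each group, and the groups overlapped. The means were -0.38 ± 0.364 and -0.46 ± 0.186 (SD, n = 3), and the difference of -0.08 ± 0.185 had a 95% interval from -0.51 to 0.36 (adjusted p = 0.955 in limma). It was 0.11 without LOI(-) 2. Since ATF4 is set largely at translation, its mRNA ratio is not a reading of the protein.

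Ddit3 (CHOP), the stress factor that ATF4 raises, was below the reference on every array used. It stood at -0.99 and -1.77 in LOI(-) 2 and 3, and at -1.62, -1.62 and -1.79 in LOI(+). LOI(-) 1 was left out because its Cy3 spot was marked as non-uniform, and it would have been -0.79. The LOI(-) mean was -1.38 ± 0.549 (SD, n = 2) and the LOI(+) mean was -1.68 ± 0.095 (SD, n = 3). The LOI(+) arrays lay close together within the range of the pair of LOI(-) arrays, apart from LOI(+) 3, just below it. The difference of -0.30 ± 0.219 had a 95% interval from -0.83 to 0.24 (adjusted p = 0.846 in limma). It was -0.49 with LOI(-) 1 kept (adjusted p = 0.824), 0.09 without LOI(-) 2 and -0.68 without LOI(-) 3.

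The degradation factors followed the same pattern of lower LOI(+) means with overlapping arrays. Edem1 codes for a lectin that hands misfolded glycoproteins to ER-associated degradation. Its brighter probe stood at -0.36, -0.38 and -0.20 in LOI(-) and at -0.81, -0.37 and -0.32 in LOI(+), where LOI(+) 1 was the lowest array. The difference was -0.18 ± 0.135, with a 95% interval from -0.50 to 0.14 (adjusted p = 0.844 in limma), and -0.028 without LOI(+) 1. The other probe of Edem1 stood at -0.06, -0.17 and -0.09 in LOI(-) and at -0.23, -0.37 and -0.15 in LOI(+). It differed by -0.14 ± 0.074 (adjusted p = 0.822 in limma), so both probes had the same sign. For this second probe the Cy3 channel alone differed by 0.13 and the reference channel by 0.27, so its lower ratio lay in the reference channel.

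Herpud1 codes for a membrane scaffold of the degradation machinery, and its promoter window held both an ERSE-II and a CARE match. It stood at 0.06, 0.31 and 0.49 in LOI(-) and at -0.38, 0.09 and 0.53 in LOI(+). The LOI(+) arrays spanned the whole LOI(-) range, from the lowest value of all to the highest. The means were 0.29 ± 0.218 and 0.08 ± 0.452 (SD, n = 3). The difference of -0.21 ± 0.224 had a 95% interval from -0.74 to 0.32 (adjusted p = 0.888 in limma), and it was 0.0197 without LOI(+) 1 and -0.43 without LOI(+) 3.

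**Figure D2:**
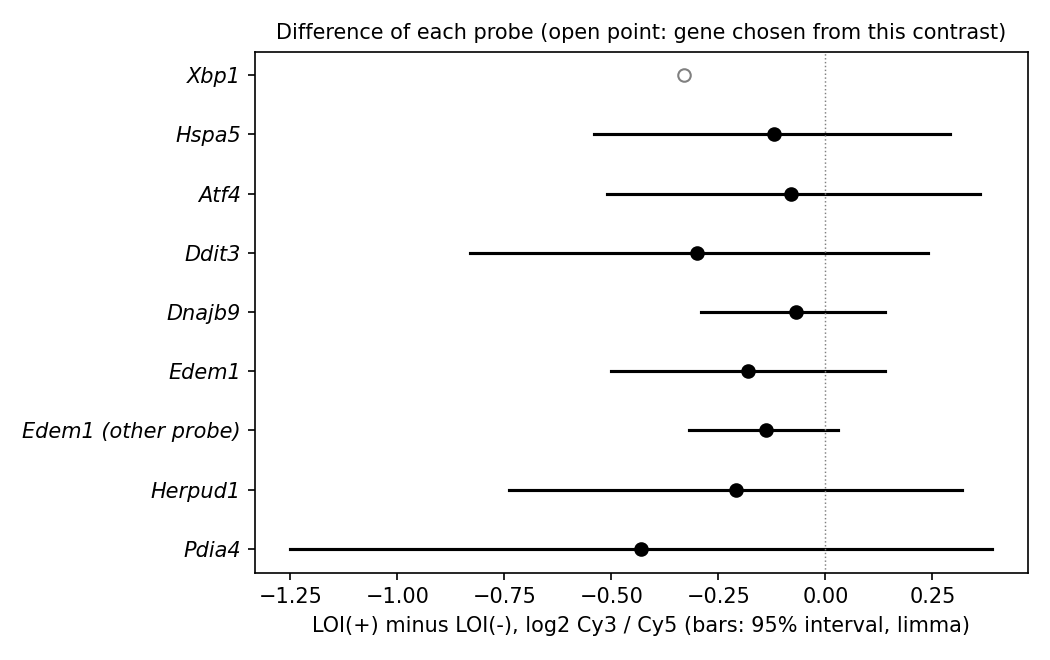
Difference LOI(+) minus LOI(-) in log2 Cy3 over Cy5 for each of the 9 probes (points) with the 95% interval of the limma fit (bars). Xbp1 is drawn open and with no interval because it was chosen from this contrast. All points lie below 0 (Dnajb9 turned to 0.0134 in the Cy3 channel alone), and every interval drawn includes 0.

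Read as a group, the 8 measured genes had a lower mean in LOI(+) in 8 of 8 cases, with a median difference of -0.197, and 7 of 7 with a median of -0.184 when Xbp1 was set aside. Over all 37939 genes and unnamed probes 48.8% had a lower mean, and over named genes 47.3%, with medians of 0.003 and 0.006. After adjustment over all features 0 of the 8 passed, where 0% of all features did and the smallest adjusted p was 0.801 in limma. At an unadjusted p under 0.05 the share of all features was 6.15%, with 2.23% lower and 3.92% higher (named genes, 2.63% and 4.93%). Of the 8 only Xbp1 was past that level or had groups that did not overlap (Ddit3 lacked 1 array), and since Xbp1 was chosen from the contrast nothing is read from that. Arrays that did not overlap were found in 5.01% of all features in the lower direction and 6.39% in the higher, or 4.98% and 6.72% of named genes.

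The 8 genes were read on the same 6 arrays, so their shared sign is not 8 independent observations. Centred on all arrays, the mean of the 8 genes was -0.12, 0.25 and 0.17 in LOI(-) and -0.21, -0.12 and 0.02 in LOI(+). LOI(-) 1 therefore lay among the LOI(+) arrays. The median difference was -0.028 without LOI(+) 1 and -0.294 without LOI(-) 1, and the count of lower means went from 8 to 6 without LOI(-) 2. In the Cy3 channel alone 7 of 8 were lower.

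How far the listed genes moved together from mouse to mouse was examined in the 6 genes other than Xbp1 and Ddit3, which gave 15 pairs over 6 arrays. Edem1 and Herpud1, both of ER-associated degradation, had Pearson r = 0.89 (permutation p = 0.0194, adjusted 0.198) and Spearman rho = 0.71 (permutation p = 0.136, adjusted 0.340). Without the 2 arrays farthest from the Edem1 median r was 0.64. Dnajb9 and Herpud1 had r = 0.87 (permutation p = 0.0264, adjusted 0.198) and rho = 0.94 (permutation p = 0.0167, adjusted 0.250), with r = 0.91 without the 2 arrays farthest from the Dnajb9 median. Hspa5 and Atf4 had r = 0.81 (permutation p = 0.0542, adjusted 0.271) and rho = 0.83 (permutation p = 0.0583, adjusted 0.340), with r = 0.58 without the 2 arrays farthest from the Hspa5 median. No pair passed after adjustment over the 15. Edem1 and Pdia4 had r = 0.06, the lowest of the pairs.

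Genes with the ERSE letters, Hspa5 among them, had a median difference near 0. Of the 11 pathway genes with a match 9 were measured, 7 with a lower and 2 with a higher mean, with a median of -0.020 and a range from -0.12 to 0.20. Hsp90b1 (GRP94), the ER form of HSP90, differed by -0.02 ± 0.065, and the calcium-binding lectin chaperones Calr and Canx by -0.03 ± 0.112 and -0.02 ± 0.082. Dnajc3 (p58IPK), a co-chaperone that also restrains PERK, differed by -0.09 ± 0.143, the ubiquitin ligase Syvn1 (HRD1) by -0.05 ± 0.058 and its partner Derl3 by -0.01 ± 0.052. The divergent pair had higher means, Alg12 by 0.20 ± 0.088 and Creld2 by 0.09 ± 0.171. The arrays overlapped in all 9. These are the brightest probes, and second probes gave other values. Those of Calr and Canx differed by -0.30 ± 0.119 and -0.19 ± 0.124, and those of Alg12 and Hsp90b1 by -0.02 ± 0.055 and 0.01 ± 0.150, with the sign turned.

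Genes with UPRE or CARE had small medians too. Of the 2 genes with ERSE-II only Herpud1 was measured, at -0.21 ± 0.224. With UPRE 9 of 13 genes were measured, with a median of -0.037. The arrays did not overlap in 1 of the 9, beside 4.98% of named genes in the lower direction and 6.72% in the higher, so nothing is read from it. It was Nfe2l1, a membrane-anchored transcription factor of the ER, at -0.10 ± 0.065 (unadjusted p = 0.151 in limma). With CARE 7 of 7 were measured, with a median of -0.031. Nupr1, a stress-induced nuclear protein, was at -0.50 ± 0.196 and Chac1, a glutathione-degrading enzyme, at 0.06 ± 0.167. By their brightest probes the CARE genes ran from -0.50 to 0.06, but a second Chac1 probe of similar brightness differed by -0.62 ± 0.252 (unadjusted p = 0.0421 in limma), so the direction of Chac1 depended on the probe.

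The wider ER and secretory pathway was read from 9 lists. Apart from the listed genes it had 251 genes, of which 181 were measured, 90 with a lower and 91 with a higher mean, and the median difference was 0.003. After adjustment over all features 0 passed, and at an unadjusted p under 0.05 in limma 6 were lower (3.31%) and 3 higher (1.66%), beside 2.63% and 4.93% of named genes. Arrays did not overlap in 8 lower and 4 higher of the 181 genes, beside 4.98% and 6.72% of named genes. A gene stood by its brightest probe, and of the 42 of these genes with another probe, 19 had one of the opposite sign. These counts moved with single arrays, to 4 lower and 17 higher without LOI(+) 1 and to 10 lower and 0 higher without LOI(-) 1. Over the ways of processing all 6 arrays the list median changed sign in 5 of the 9 lists, and it kept its sign for transcription factors (-0.130 to -0.039), translocation (0.045 to 0.115), N-glycosylation (0.002 to 0.088) and ER to Golgi transport (0.018 to 0.064). Leaving out 1 array turned the sign in 7 of the 9 lists, all but transcription factors (-0.140 to -0.025) and ER-associated degradation (-0.069 to -0.009). In the next paragraphs genes were named by smallest p in each list, and all had adjusted p of 0.801 to 0.848.

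**Figure D3:**
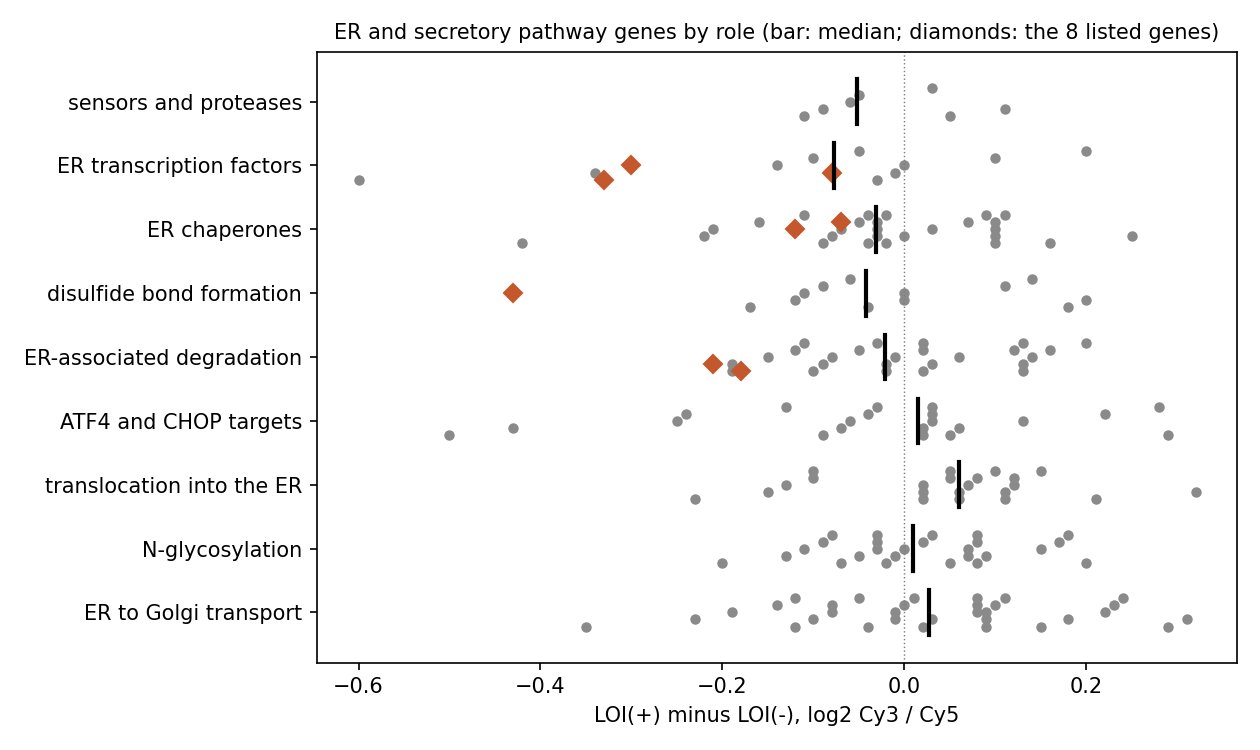
Difference LOI(+) minus LOI(-) in log2 Cy3 over Cy5 of each measured gene (grey points) of the 9 pathway lists, with a black bar at each list median and orange diamonds for the listed unfolded protein response genes. The diamonds lie to the left of 0, and the list medians run from -0.077 for transcription factors to 0.060 for translocation into the ER, which became -0.001 without LOI(+) 2.

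Among the sensors and their proteases 7 of 9 genes were measured, 4 lower and 3 higher, with a median of -0.052 and 0 past an unadjusted p of 0.05 in limma. Atf6b, a relative of Atf6, differed by 0.11 ± 0.065, Traf2, the adaptor that couples IRE1 to kinase signalling, by -0.11 ± 0.075, and Mbtps1, the S1P protease that cuts ATF6, by -0.09 ± 0.073. Eif2ak3 (PERK), given for its role and not by the rule, differed by 0.03 ± 0.067, and its other probe by -0.09 ± 0.129. In none of the 7 did the arrays of the groups lie apart.

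ER transcription factors had the lowest list median, -0.077, with 10 of 13 measured genes lower, Xbp1, Atf4 and Ddit3 among them. Cebpb, a partner of CHOP, stood at -1.57, -1.07 and -1.64 in LOI(-) and at -1.73, -1.86 and -1.72 in LOI(+), without overlap, and differed by -0.34 ± 0.149 (unadjusted p = 0.0543 in limma). Creb3l3 (CREB-H), a membrane-bound factor of liver and gut, differed by -0.60 ± 0.284 with LOI(-) 1 left out as an outlier spot, and by -0.09 without LOI(-) 2 and -1.11 without LOI(-) 3. Atf3, a stress-induced factor, differed by -0.14 ± 0.074.

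Of the ER chaperones 29 of 31 genes were measured, 19 lower and 10 higher, with a median of -0.031. Serpinh1 (HSP47), a chaperone of collagen made mostly by fibroblasts, was the only member of this list past an unadjusted p of 0.05. It stood at -2.13, -2.27 and -2.17 in LOI(-) and at -2.35, -2.47 and -2.39 in LOI(+), without overlap, a difference of -0.21 ± 0.064 (unadjusted p = 0.0147 in limma). Cy3 alone differed by -0.07 and the reference channel by 0.14, so most of this difference lay in the reference channel. Sdf2l1, which keeps BiP clients soluble, differed by -0.42 ± 0.227 and Hyou1 (GRP170), a nucleotide exchange factor of BiP, by 0.25 ± 0.150. A second Hyou1 probe, with a Cy3 signal of 457 to 473 barely above the negative controls, differed by -0.15 ± 0.066 without overlap between the groups. Its Cy3 channel alone differed by 0.07 and its reference channel by 0.21, so its lower ratio lay in the reference channel. For the brighter probe Cy3 alone differed by 0.26. The sign of the Hyou1 ratio thus depended on the probe, while that of Cy3 alone did not. For disulfide bond formation 13 of 25 genes were measured, 9 lower and 4 higher, with a median of -0.042. Tmx2, a membrane thioredoxin, differed by 0.20 ± 0.095, the peroxidase Gpx7 by -0.11 ± 0.059 and Txndc11 by 0.14 ± 0.100.

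ER-associated degradation had a median of -0.021 over 27 of 38 genes, 15 lower and 12 higher. Ufd1, which works with the VCP ATPase to pull proteins out of the ER, stood at -0.55, -0.62 and -0.53 in LOI(-) and at -0.49, -0.36 and -0.38 in LOI(+), without overlap. It differed by 0.16 ± 0.061 (unadjusted p = 0.0345 in limma). The lectin Os9 differed by 0.20 ± 0.097 by its brightest probe and by -0.15 ± 0.142 by another, and Ubxn6, a VCP cofactor, differed by -0.11 ± 0.056. Edem1 and Herpud1 belong to this list.

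The targets of ATF4 and CHOP held the smallest unadjusted p of the 181 pathway genes that are not on the list of 10, and had a median near 0, of 0.015 over 21 of 34 genes, 10 lower and 11 higher. Gdf15, a stress-induced secreted factor, stood at -0.24, -0.71 and -0.37 in LOI(-) and at -0.94, -0.80 and -0.87 in LOI(+), without overlap. It differed by -0.43 ± 0.120 (unadjusted p = 0.00947, adjusted p = 0.801 in limma). Nupr1 stood at 0.22, -0.59 and -0.23 in LOI(-) and at -0.85, -0.74 and -0.52 in LOI(+), with LOI(-) 2 among the LOI(+) arrays (unadjusted p = 0.0369 in limma). Eif4ebp1, a brake on translation initiation, differed by -0.24 ± 0.096 (unadjusted p = 0.0408 in limma), of which -0.11 lay in the Cy3 channel and the rest in the reference. Of the 21 genes 3 were past an unadjusted p of 0.05 in limma in the lower direction (14.3%) and 0 in the higher. The shares of named genes were 2.63% and 4.93%, and with so few genes nothing is read from the 0.

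Lists of genes that carry proteins into the ER, glycosylate them and carry them on had medians above 0, but each lay below 0 when 1 array was left out. The translocation median was -0.001 and that of ER to Golgi transport -0.009 without LOI(+) 2, and that of N-glycosylation was -0.048 without LOI(-) 2. For translocation 22 of 29 genes were measured, 17 with a higher mean, with a median of 0.060. Get4, of tail-anchored protein insertion, differed by 0.21 ± 0.081 (unadjusted p = 0.0335 in limma), Srp54a, the GTPase of the signal recognition particle, by 0.32 ± 0.143 (-0.05 ± 0.111 by its other probe), and Sec61a2, an alpha subunit of the translocon, by 0.12 ± 0.064. N-glycosylation had a median of 0.009 over 26 of 33 genes. Dpm1, which makes dolichol phosphate mannose, differed by 0.18 ± 0.068 without overlap between the groups (unadjusted p = 0.0344 in limma), and Rpn2, a subunit of the oligosaccharyltransferase, by 0.17 ± 0.082.

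ER to Golgi transport had a median of 0.027 over 32 of 45 genes, 14 lower and 18 higher. Kdelr2, the receptor that returns BiP and other KDEL proteins to the ER, stood at -0.57, -0.38 and -0.24 in LOI(-) and at -0.73, -0.91 and -0.61 in LOI(+), without overlap. It differed by -0.35 ± 0.109 (unadjusted p = 0.0141 in limma). Arfgap3, a regulator of COPI coats, differed by -0.19 ± 0.075 (unadjusted p = 0.0399 in limma), also without overlap. Sec13, a COPII coat subunit, differed by 0.31 ± 0.138, so this list held values in both directions.

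Markers of the secretory and other cells of the gut were read beside the listed genes. Of the goblet cell list 12 of 13 measured genes had a lower mean, with a median of -0.117, but with scale normalization between arrays only 5 of 13 did, with a median of 0.088, and in the Cy3 channel alone 9 of 13 did, with a median of -0.198. Its summed Cy3 signal was 78339 to 170329 in LOI(-) and 83745 to 133397 in LOI(+). The mucin Muc2 differed by -0.19 ± 0.073 and Tff3, a secreted partner of mucin, by -0.14 ± 0.058, and both signs turned with scale normalization, to 0.0407 and 0.22. The goblet list includes Ern2 and Creb3l1, and the Paneth list includes Nupr1, which are also pathway genes. Of the Paneth cell list 7 of 10 were lower, with a median of -0.049 that became 0.108 with scale normalization and 0.016 with median centring, and -0.256 in the Cy3 channel alone, where 8 of 10 were lower. Its summed signal was 224747 to 293436 in LOI(-) and 227240 to 242117 in LOI(+), with 4 saturated genes. Mmp7 differed by -0.16 ± 0.092 (-0.47 ± 0.425 by a dimmer probe), and by 0.19 with scale normalization. Muc2 and Mmp7 were far above the reference in both groups, with means of 3.53 and 5.34 in LOI(-) and 3.34 and 5.18 in LOI(+). The Paneth cell marker Gfi1 was below it in both, at -0.88 in LOI(-) and -0.75 in LOI(+). In LOI(-) 12 of 13 goblet genes and 8 of 10 Paneth genes lay above the reference. The part of goblet and Paneth cells in the Xbp1 difference was not tested.

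Plasma and B cells also rely on Xbp1. Of their list, which includes the pathway gene Derl3, 10 of 12 measured genes had a lower mean, with a median of -0.103. All 12 were above the negative controls on every array, a low bar that 94.0% to 95.7% of all probes passed on each array. The mean of the list, centred on all arrays, was 0.05, 0.04 and 0.04 in LOI(-) and -0.06, -0.01 and -0.07 in LOI(+), without overlap, and 3 of its 12 genes did not overlap, all lower, beside 4.98% of named genes. The summed signal did overlap, at 10912 to 12984 in LOI(-) and 11250 to 12374 in LOI(+). Cd74, of antigen-presenting cells more widely, had the lowest difference of the list, -0.41 ± 0.200. The 2 genes with a higher mean were the B cell markers Ms4a1, at 0.28 ± 0.146, and Cd79a, at 0.05 ± 0.055. A dimmer Ms4a1 probe differed by -0.16 ± 0.113. Jchain, Sdc1 and Mzb1, markers of plasma cells, had no probe paired with them. The part of these cells in the Xbp1 difference was not tested.

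The other marker lists moved by different amounts. Lower small intestine genes, 7 of 8 of them lower, had a median of -0.421, which became -0.182 without background correction and -0.188 with scale normalization, with summed signals of 22674 to 42842 in LOI(-) and 28812 to 33912 in LOI(+). Slc10a2, the ileal bile acid transporter, stood at 1.29, 0.54 and 0.64 in LOI(-) and at 0.09, 0.14 and 0.17 in LOI(+), without overlap (difference -0.69 ± 0.184). Upper small intestine genes had a median of -0.076 over 4 measured genes, 0.009 in the Cy3 channel alone, with Slc40a1, the iron exporter, at -0.16 ± 0.172. The part of position along the intestine in the listed genes was not tested. The median over 5 smooth muscle genes was -0.104, with the muscle proteins Tagln at -0.35 ± 0.119 and Des at -0.12 ± 0.067. Over 10 enteroendocrine genes it was 0.041, with the gut hormones Cck at 0.46 ± 0.170 and Pyy at -0.60 ± 0.240. Villus enterocyte genes had a median of 0.091 over 9, with the lipid carriers Fabp1 at 0.74 ± 0.420 (0.23 without LOI(-) 1) and Mttp at -0.36 ± 0.199. Crypt stem and progenitor genes had 0.065 over 4, with Smoc2 at 0.22 ± 0.119 and the Wnt target Axin2 at -0.11 ± 0.071. Pancreatic acinar genes had -0.018 over 7, with Pnliprp1 at -0.18 ± 0.053 (0.02 ± 0.111 by its other probe) and Cela2a at -0.12 ± 0.061.

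**Figure D4:**
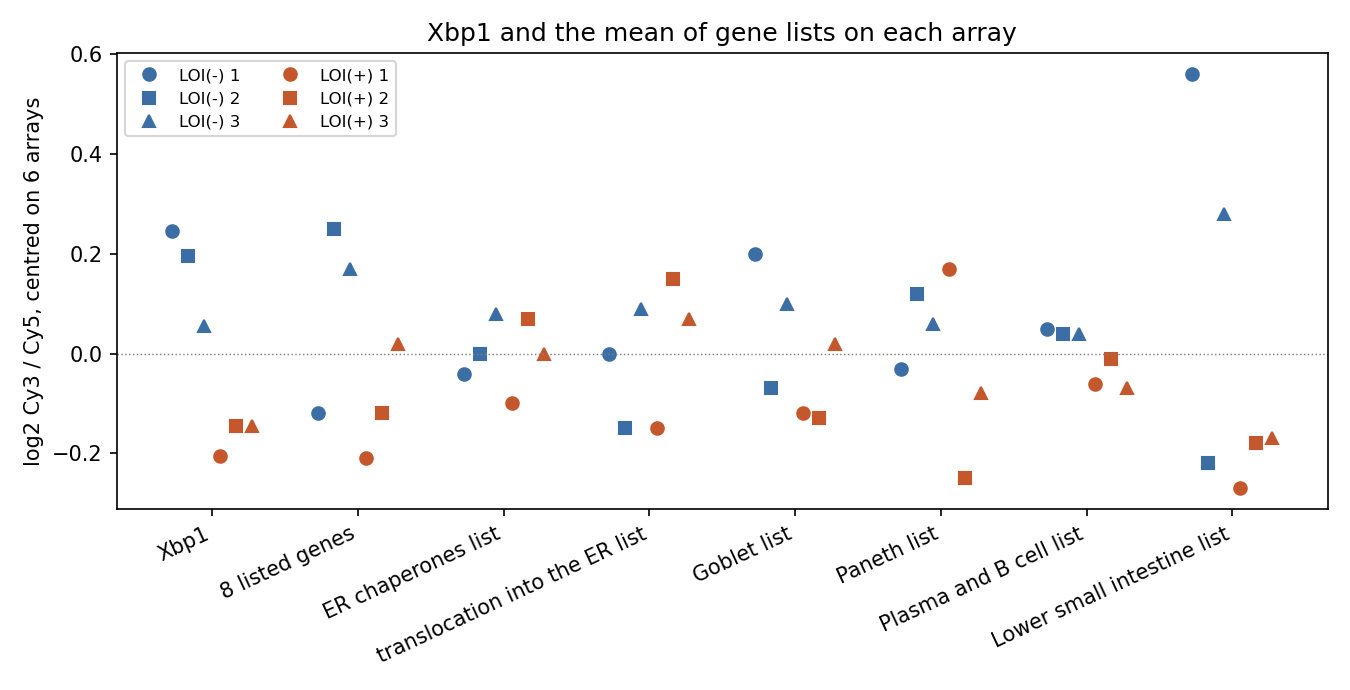
Xbp1 and the mean of 7 gene sets on each array, as log2 Cy3 over Cy5 centred on the 6 arrays, with LOI(-) in blue and LOI(+) in orange. Xbp1 and the plasma and B cell list have no overlap between groups, while the 8 listed genes, the goblet list and the lower small intestine list do.

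The genes whose ratios followed Xbp1 most closely over the 6 arrays were picked from 11684 named genes above the negative controls on every array. Among the highest Pearson r were those of Tnfsf14, a TNF family cytokine (0.995), Cobl, an actin nucleator (0.992), Ercc1, of nucleotide excision repair (0.991), and Cep120, a centrosomal protein (0.986). The lowest were Mthfd1l, of mitochondrial folate metabolism, and Tbl3, of ribosome production (-0.992 each), and Paox, a polyamine oxidase (-0.991). None of the genes named here was among the listed genes or the pathway lists. With 6 arrays a high r is common, since 227 of the 11684 genes had an absolute r over 0.9 and the median absolute r was 0.38, so these are given as a description with no test. Cobl stood at 2.00, 1.95 and 1.86 in LOI(-) and at 1.66, 1.69 and 1.65 in LOI(+). Its lack of overlap follows from the way it was picked, since the Xbp1 arrays themselves lay apart by group, and nothing is read from it.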

How the data were processed

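Per the file headers, the authors deposited the output of Agilent Feature Extraction (version A.7.5.1) for each array, with the intensity of each spot in both channels as mean signal, local background and a processed signal that is already dye-normalized. A value table on the log10 scale was also deposited. Against the processed signals it matched log10 Cy3 minus log10 Cy5 plus the mean log10 Cy5 (r of 0.998 or more), with column medians of 2.90, and it served as an alternative.

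The mean signals were corrected with normexp (offset 50) and loess within each array in limma 3.58.1 (R 4.3.3), leaving out outlier-marked spots. The brightest probe stood for a gene. Symbols came from RefSeq GRCm38.p6 for 15429 of 41006 probes (37.6%). Groups (3 separate mice each, per the labels) were compared with lmFit and eBayes, two-sided, with Benjamini-Hochberg adjustment over 37939 features at 0.05. Intervals are 95%. Precision is limited by the number of arrays, and the median SE was 0.077. The fit was tested on simulated data. No set test was run.

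The listed genes and all gene lists were chosen with earlier results of these data known. Genes named from the wider lists are the 3 of smallest p per pathway list and 2 per marker list, plus the 5 highest and 3 lowest r with Xbp1. Some genes that this rule names are not reported here. Others are named for their role or promoter match. Alternatives covered background correction, normalization, channel, filters, probes per gene, model, replicate block and each array left out.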

Additional observations from a re-analysis of the deposited data

How the results depend on the processing

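No gene or unnamed probe passed an adjusted p of 0.05 in limma, under the main processing or under any of the alternatives run over all features, while counts at an unadjusted p under 0.05 ran from 615 to 1077 lower and from 881 to 2280 higher. The median difference of the 8 listed genes ran from -0.294 to -0.028 when each array was left out in turn, and their median LOI(-) ratio went from -0.30 to -0.63 with median centring in place of loess. Signs turned when an array was left out for Atf4 (-0.25 to 0.11), Ddit3 (-0.68 to 0.09), Dnajb9 (-0.14 to 0.0048), Herpud1 (-0.43 to 0.0197) and Slc40a1 (-0.30 to 0.0388); the highest values came without LOI(-) 2, LOI(-) 2, LOI(-) 3, LOI(+) 1 and LOI(-) 1 in that order. They also turned for Dnajb9 (0.0134) and Cela2a (0.0184) in the Cy3 channel alone, and for Muc2 (0.0407), Tff3 (0.22) and Mmp7 (0.19) with scale normalization between arrays. The cause was not tested. Deviations of same-numbered arrays from their group means correlated at -0.088, -0.249 and 0.353, and only LOI(-) 3 correlated best with its own number. With so few arrays these values cannot decide whether replicate numbers pair the mice. With the replicate number as a block 0 features passed, 8 of 8 listed genes were lower with a median of -0.197, and the wider pathway had 10 lower and 6 higher genes at an unadjusted p under 0.05, against 6 and 3. Scale normalization gave 12 lower and 3 higher. Keeping outlier-marked spots and setting Xbp1 aside were added after seeing the data. Dim signal limits Dnajb9 most, and 3 mice per group limit every interval.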
